A study of Mus musculus with 29 samples.

Results

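Semaphorin, ephrin and other guidance genes were examined in mouse primary tail keratinocytes, epithelial cells of the skin, that carry an inducible c-Fos transgene (c-FostetON). A probe was taken when its annotated symbol began with Sema, Plxn, Efna, Efnb, Epha, Ephb, Flrt, Slit or Robo followed by a digit, Unc5 or Ntn, or was Nrp1 or Nrp2, and when its detection p-value was below 0.01 on at least 2 arrays. One Eph gene was not analysed here. Of 106 probes of 69 genes with such symbols, 34 probes of 25 genes met the detection rule, among 11794 probes of 25697 on the array. The cells were of strain C57BL/6, were cultured at 32 °C in KC-SFM, a serum-free keratinocyte medium, and were left untreated or given doxycycline (Dox), the drug that switches on a tet-ON transgene. Both kinds of culture were harvested after 6, 12, 24, 48 and 72 h, giving 10 groups on 29 Illumina bead arrays. The untreated groups held 2, 2, 3, 3 and 4 arrays and the Dox groups 3, 3, 3, 2 and 4, in order of time. The pair of 72 h arrays of letter C was averaged within each treatment, so each 72 h group counted 3 replicates. The labels give Dox as 1 µg/ml in one field and in µg/L in another. Every culture carried the transgene, no culture without it was sampled here, and an action of Dox itself cannot be told apart from one of c-Fos. The sources used here name neither the promoter that drives the tet activator nor the origin of the lettered replicates, so each p-value reflects the spread among these arrays, which may be technical.

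Semaphorins are secreted or membrane-bound ligands that turn cells and axons away or draw them in through plexin receptors, often with neuropilins as co-receptors. Ephrins are membrane-bound ligands of the Eph receptor tyrosine kinases, and both sides of an ephrin-Eph contact can signal. Netrins act through Dcc and Unc5 receptors, Slits through Robo receptors, and Flrt proteins are adhesion molecules that bind Unc5 receptors and latrophilins. In skin, ephrin-Eph contacts and several semaphorins are known for their parts in keratinocyte adhesion, migration and cutaneous nerve supply.

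Several features of the arrays bear on every result. The Fos probe, which should have checked the labels, gave lower values on the arrays labelled Dox: over the 5 times in order its log2 difference was -0.39, -0.32, -0.76, -0.83 and -0.78, past the threshold at the last 3 (limma adjusted p = 0.00547, 0.00551 and 0.00166). No source used here places this probe relative to the transgene, so every direction below is that of the labels, and "with Dox" stands for arrays labelled Dox. The authors' values fell into 4 sets of arrays. Comparisons at 6, 48 and 72 h lie within 1 set, those at 12 and 24 h cross sets, and 72 h differs from 24 h and 6 h in set as well as in time. The untreated 6 h arrays stood apart from the others. On them the log2 difference between a pair of probes of Actb, the beta-actin gene, was 3.95 to 4.59, against -4.03 to -3.44 on the Dox arrays of 6 h. At 12 h it was 1.10 to 1.63 untreated and -2.59 to -1.75 with Dox, and at 24 h 0.91 on untreated replicate 1 against -4.12 and -3.39 on the other untreated arrays. The part of these differences in the results was not tested beyond a fit with this difference as a covariate. At 72 h too the Actb difference did not overlap between treatments, at -2.41 to -1.71 untreated and -3.71 to -3.09 with Dox. Since the covariate itself did not overlap at 6, 12 and 72 h, that fit cannot separate it well from treatment at those times. Markers of keratinocytes were detected throughout: 9 of 12 listed genes were measured, each on all 29 arrays, among them Krt5, Krt14 and Trp63. The fibroblast collagen probes of Col1a1 and Col3a1 were detected on 0 arrays and that of Col1a2 on 1 array, and 0 of 10 listed immune genes met the detection rule.

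Promoter sequences are shown for Sema5a, Flrt2 and Plxna2, described first among their families below, because c-Fos is a subunit of AP-1, a transcription factor that binds TGANTCA. Each is the RefSeq sequence (mouse build GRCm38.p6, plus strand) from 250 bases before to 50 after the annotated start: Sema5a at chr15:32244563-32244862, Flrt2 at chr12:95691976-95692275 and Plxna2 at chr1:194619579-194619878. Capitals mark GC boxes (GGGCGG, or CCGCCC on the other strand, overlapping matches counted).
Sema5a: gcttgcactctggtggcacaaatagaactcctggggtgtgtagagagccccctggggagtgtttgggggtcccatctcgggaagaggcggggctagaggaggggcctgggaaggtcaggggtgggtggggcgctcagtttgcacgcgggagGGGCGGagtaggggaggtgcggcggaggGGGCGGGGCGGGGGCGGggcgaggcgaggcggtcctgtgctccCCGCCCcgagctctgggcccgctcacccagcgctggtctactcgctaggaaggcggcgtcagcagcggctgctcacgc
Flrt2: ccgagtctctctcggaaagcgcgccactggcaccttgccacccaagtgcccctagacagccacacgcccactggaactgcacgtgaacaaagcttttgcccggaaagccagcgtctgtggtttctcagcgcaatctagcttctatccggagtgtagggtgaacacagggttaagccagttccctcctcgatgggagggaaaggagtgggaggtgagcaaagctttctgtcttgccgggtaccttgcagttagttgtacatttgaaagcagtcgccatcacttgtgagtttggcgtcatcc
Plxna2: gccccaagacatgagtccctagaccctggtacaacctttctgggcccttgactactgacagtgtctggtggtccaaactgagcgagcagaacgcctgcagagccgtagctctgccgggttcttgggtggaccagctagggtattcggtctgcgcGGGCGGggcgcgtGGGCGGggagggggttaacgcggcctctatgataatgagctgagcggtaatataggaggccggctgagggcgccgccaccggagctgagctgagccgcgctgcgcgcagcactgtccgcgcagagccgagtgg
The Sema5a window held 5 GC boxes, Plxna2 2 and Flrt2 0, and none of the 3 held TGANTCA or the cyclic AMP element TGACGTCA on either strand. RefSeq promoters were found for 23 of the 25 genes, 31 windows in all. TGANTCA was in 2 of these windows (6.45%), 1 each of Sema4d and Sema6b, against 6.99% of promoters of protein-coding genes. TGACGTCA was in 0, against 2.23%, and a GC box in 21 (67.7%), against 46.2%. These letters within a short window describe the sequence and say nothing of where AP-1 binds.

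Detection by family showed which ligands and receptors these arrays could measure. Of semaphorin probes 9 of 34 were detected, of plexin probes 2 of 8, of neuropilin probes 3 of 5, of ephrin-A probes 5 of 7, of ephrin-B probes 3 of 3, of EphA probes 3 of 15, of EphB probes 1 of 4, of Flrt probes 4 of 5, of Robo probes 1 of 5, of probes with the Unc5 prefix 1 of 7 (Unc50 and Unc5cl, which share the prefix and are not netrin receptors, included) and of netrin probes 2 of 10. None of 3 Slit probes was detected on any array. The detected netrin probes were those of Ntng1 and Ntng2, membrane-anchored netrin-G proteins. Just inside the detection rule, on 2 arrays each, were Nrp2, Sema4d and Unc5a. Just outside it, on 1 array each, were 9 probes, those of Efna3, Epha3, Ntn4, Ntn5, Plxna3, Plxnb1, Robo4 and Sema3b and 1 further probe of Epha1. Of the 34 probes 18 were detected on all 29 arrays, 4 on 10 to 28 and 12 on 2 to 9, so for the last group most values lie at the background.

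Sema5a, a transmembrane semaphorin with thrombospondin repeats, was higher with Dox from 12 to 72 h on both of its probes, and lower at 6 h. Its untreated level fell by 1.63 (log2) from 6 to 72 h, and with Dox the same difference was 0.15. On probe ILMN_2604226 the untreated log2 values were 8.93 and 9.15 at 6 h, 8.33 and 8.29 at 12 h, 7.84, 7.88 and 7.69 at 24 h, 7.16, 7.09 and 6.89 at 48 h, and 7.56, 7.46 and 7.19 at 72 h. With Dox they were 8.66, 8.38 and 8.58 at 6 h, 8.91, 9.0 and 8.89 at 12 h, 8.98, 8.76 and 8.78 at 24 h, 8.40 and 8.34 at 48 h, and 8.61, 8.67 and 8.78 at 72 h. At 6 h every Dox replicate lay below every untreated one, and at each later time every Dox replicate lay above. In bulk RNA a change per cell and a change in the share of cells with the transcript cannot be told apart, here and below.

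Over 6, 12, 24, 48 and 72 h the Sema5a difference, Dox minus untreated on the log2 scale, was -0.50 (SE 0.12, limma adjusted p = 0.00376), 0.62, 1.04, 1.32 and 1.28, the last with SE 0.11 and adjusted p = 6.06e-09, a 2.43-fold higher level. The second probe, ILMN_2604224, gave -0.44, 0.74, 1.18, 1.22 and 1.28 at the same times, each past the threshold, and followed the first with r = 0.957 over 27 replicates, a description of values that share arrays and groups. Averaged over 24, 48 and 72 h the differences were 1.21 (SE 0.07, adjusted p = 3.58e-13) and 1.23 (SE 0.08, adjusted p = 2.81e-11). The F test of whether the effect differed between 12, 24, 48 and 72 h did not pass (adjusted p = 0.0654 and 0.397), while the same test with 6 h included did (adjusted p = 2.10e-07 and 5.40e-06). From 6 to 72 h the untreated level fell by 1.63 and 1.49 (adjusted p = 6.94e-11 and 1.26e-08), and with Dox the differences of 0.15 (SE 0.11, adjusted p = 0.315) and 0.23 (SE 0.14, adjusted p = 0.208) did not pass. On the authors' deposited log2 values the means over 24, 48 and 72 h were 0.75 and 0.51, both past the threshold, and not past it were the second probe at 48 h (0.41, adjusted p = 0.117) and both probes at 6 h (-0.38 and -0.22, adjusted p = 0.112 and 0.242). The 12 h calls ended without untreated replicate 1, the one in another array set, with differences of 0.64 (adjusted p = 0.131) and 0.63 (adjusted p = 0.273), and on the second probe also without Dox replicate 2 (0.58, adjusted p = 0.0701). The 6 h call of the second probe ended without any one of the 5 arrays (adjusted p from 0.0532 to 0.237) and that of the first without untreated replicate 2 (-0.39, adjusted p = 0.0852).

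**Figure D1:**
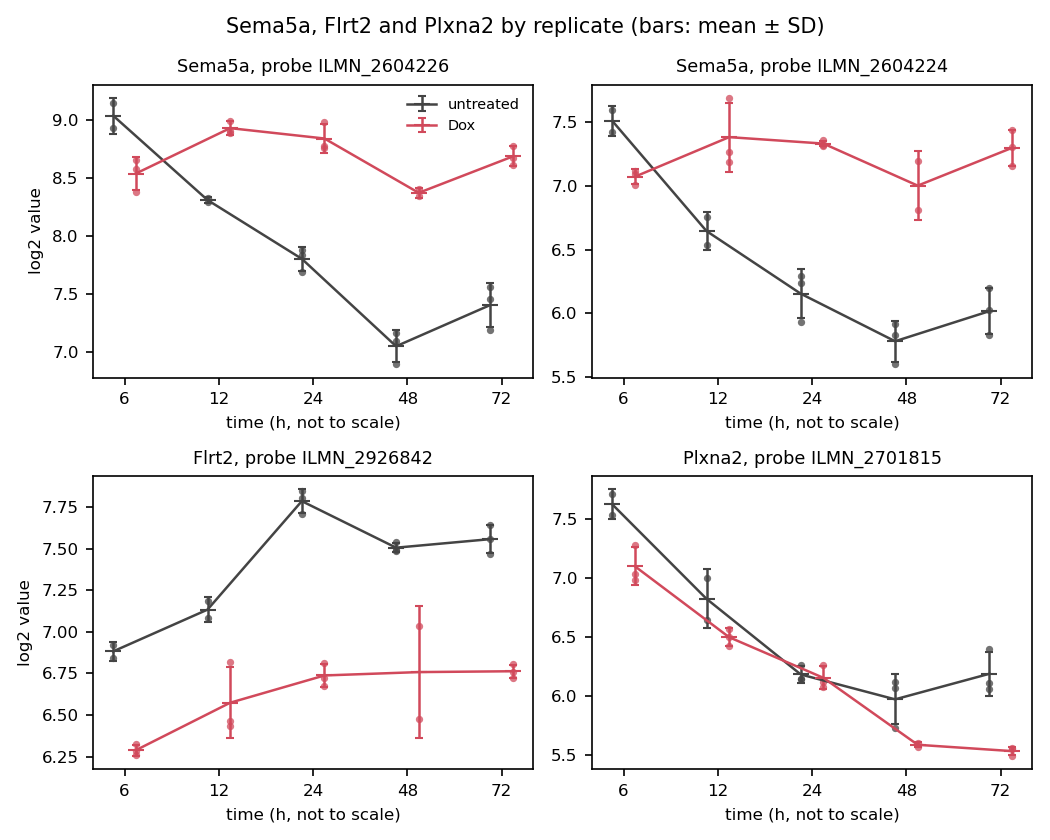
Log2 value (vertical axis) of Sema5a on both probes, Flrt2 and Plxna2 at 5 culture times (horizontal axis, hours, evenly spaced), with a point per replicate and lines through group means ± SD, untreated in grey and Dox in red. Untreated Sema5a fell by 1.63 and 1.49 from 6 to 72 h against Dox differences of 0.15 and 0.23, Flrt2 was lower with Dox at each time, and Plxna2 fell in both treatments and ended lower with Dox.

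Sema4b, a transmembrane semaphorin, changed sign over time. Its untreated values were 9.44 and 9.35 at 6 h against 8.91, 8.70 and 8.85 with Dox, and 8.29, 8.49 and 8.30 at 24 h against 8.81, 8.87 and 8.84 with Dox. The groups did not overlap at either time, and Dox was the lower at 6 h and the higher at 24 h. In order of time the differences were -0.57 (SE 0.14, adjusted p = 0.00307), 0.04, 0.48 (SE 0.12, adjusted p = 0.0327), -0.09 and -0.35 (adjusted p = 0.11), and the 6 h and 24 h values passed. The 6 h call ended on the authors' deposited log2 values (-0.46, limma adjusted p = 0.0857). The 24 h call ended when any of 5 of the 6 arrays was left out (adjusted p up to 0.14) and on the authors' deposited log2 values, where the difference was 0.14 (adjusted p = 0.472). Median scaling, which lowered the median 24 h difference of all probes by 0.21, left it at 0.16 (adjusted p = 0.479).

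Sema7a, a lipid-anchored semaphorin that signals through plexin C1 and integrins, was lower at 72 h than at 6 h in both treatments. Untreated values were 5.84 and 5.77 at 6 h, 5.68 and 5.59 at 12 h, 5.18, 4.91 and 4.79 at 24 h, 4.71, 4.59 and 4.84 at 48 h, and 4.80, 4.37 and 4.45 at 72 h. With Dox they were 6.53, 6.05 and 6.20 at 6 h, 5.38, 5.87 and 5.91 at 12 h, 5.26, 5.47 and 5.42 at 24 h, 4.66 and 4.50 at 48 h, and 4.38, 4.35 and 4.60 at 72 h. At 6 h and 24 h all Dox replicates lay above the untreated ones, with differences of 0.46 (adjusted p = 0.0396) and 0.42, and only the first passed the threshold. Without untreated replicate 1, untreated replicate 2, Dox replicate 1 or Dox replicate 3 that 6 h call ended (adjusted p up to 0.18). It also ended on the authors' deposited log2 values (0.13, limma adjusted p = 0.218), with median scaling (0.34, adjusted p = 0.16) and without a detection filter (adjusted p = 0.0765). Sema7a was not detected on any 72 h Dox array, so with Dox it was at least 1.54-fold lower at 72 h than at 24 h (adjusted p = 5.08e-05).

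Sema3f, a secreted semaphorin that binds neuropilin 2, was lower at 72 h than at 24 h in untreated cultures on both probes, by -0.45 (ILMN_1248740, adjusted p = 0.00246) and -0.43 (ILMN_2635631, adjusted p = 0.0146). Both calls ended on the authors' deposited log2 values (-0.26 and -0.20, adjusted p = 0.115 and 0.0907) and with median scaling (adjusted p = 0.0895 and 0.0696), and the second also in 2 of 6 fits without 1 replicate (adjusted p up to 0.124). Its Dox minus untreated differences from 12 to 72 h ran from -0.22 to 0.24 and none passed the threshold. At 6 h the probe ILMN_2635631 fell by 0.39 with Dox (adjusted p = 0.0363) and the other probe was at -0.14 (adjusted p = 0.404). That 6 h call ended in 4 of 5 fits without 1 array (adjusted p up to 0.197) and on the authors' deposited log2 values (-0.22, adjusted p = 0.164). Sema4a, a transmembrane semaphorin also known from immune cells, lay between 8.13 and 8.72 in all 27 replicates, with differences from -0.10 to 0.05, none past the threshold. Sema4d and Sema6b, detected on 2 and 3 arrays, gave no Dox call.

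Among the receptors, Plxna2, a plexin that transmits semaphorin signals with neuropilins or directly, fell over time in both treatments and was lower with Dox at 72 h. Untreated values were 7.54 and 7.72 at 6 h, 7.0 and 6.65 at 12 h, 6.14, 6.15 and 6.26 at 24 h, 6.07, 6.12 and 5.73 at 48 h, and 6.11, 6.40 and 6.06 at 72 h. With Dox they were 7.28, 7.04 and 6.99 at 6 h, 6.42, 6.57 and 6.51 at 12 h, 6.12, 6.27 and 6.08 at 24 h, 5.6 and 5.57 at 48 h, and 5.50, 5.55 and 5.56 at 72 h. At 24 h the groups overlapped, and at the other 4 times every Dox replicate was below every untreated one. The difference in order of time was -0.53 (SE 0.13, adjusted p = 0.0047), -0.33, -0.03, -0.39 and -0.66 (SE 0.12, adjusted p = 6.78e-04, a 1.57-fold lower level), and only the 6 h and 72 h values passed the threshold. The mean over 24, 48 and 72 h was -0.36 (SE 0.07, adjusted p = 0.00119), and on the authors' deposited log2 values it was -0.13 (adjusted p = 0.00709). The F test over 12, 24, 48 and 72 h did not pass (adjusted p = 0.185). From 6 to 72 h Plxna2 fell by 1.44 in untreated cultures and by 1.57 with Dox. The 6 h call ended without untreated replicate 2 (-0.44, adjusted p = 0.0794). The other detected plexin, Plxnc1, the receptor of Sema7a, was detected on 3 arrays and gave no Dox call.

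Nrp1, a co-receptor of class 3 semaphorins and of vascular endothelial growth factor, rose over time. On probe ILMN_1237197 untreated values were 5.88, 6.00 and 6.10 at 24 h and 6.77, 6.83 and 6.40 at 72 h, without overlap. With Dox they were 5.90, 5.73 and 5.85 at 24 h and 6.23, 6.34 and 6.28 at 72 h, again without overlap. The rise from 24 to 72 h was 0.67 (SE 0.12, adjusted p = 2.79e-04) untreated and 0.46 (SE 0.12, adjusted p = 0.0119) with Dox, and on probe ILMN_2669912 it was 0.92 (adjusted p = 6.20e-05) untreated and 0.17 with Dox, not past the threshold. Whether the rise differed between treatments was not tested by a contrast of its own. The limma F test of the Dox effect over 12, 24, 48 and 72 h, which takes in both times, did not pass on either probe (adjusted p = 0.832 and 0.193). At 72 h Nrp1 was lower with Dox by differences of -0.38 (adjusted p = 0.0675) and -0.47 (adjusted p = 0.0594), neither past the threshold, although no replicates overlapped. The mean over 24, 48 and 72 h passed on the first probe (-0.24, SE 0.07, adjusted p = 0.0387) and not on the second (-0.14, adjusted p = 0.406), and the first call ended in 12 of 17 fits that left out 1 replicate (adjusted p up to 0.0921) and when the fit also held the array set (-0.21, adjusted p = 0.157). Nrp2 was detected on 2 arrays and gave no Dox call.

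Among the ephrin ligands, Efna1, a lipid-anchored ligand of EphA receptors, was higher with Dox at 48 h. Its values were 5.42, 5.54 and 5.27 untreated and 6.19 and 6.08 with Dox, with no overlap. At 72 h they were 5.47, 5.68 and 5.73 untreated and 5.52, 5.54 and 5.52 with Dox, where the groups overlapped. From 12 to 72 h the differences were -0.23, 0.28, 0.73 (SE 0.13, adjusted p = 9.22e-04, a 1.66-fold higher level) and -0.10, and only the 48 h value passed. Their mean without 12 h was 0.30 (SE 0.07, adjusted p = 0.00414), against 0.07 (adjusted p = 0.144) on the authors' deposited log2 values. The F test for an effect that differs between these 4 times passed (F = 11.7, adjusted p = 0.00849). On the authors' deposited log2 values, the 48 h difference was 0.17 (adjusted p = 0.352) and the F test did not pass (adjusted p = 0.151).

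Efna4, another EphA ligand, was lower in the mean over 24, 48 and 72 h by -0.27 on probe ILMN_2691352 (SE 0.08, adjusted p = 0.0433), a call that ended in 12 of 17 fits without 1 replicate (adjusted p up to 0.238). Its other probe, ILMN_1217493, gave -0.23 (adjusted p = 0.0568), and at 24 h the probes gave -0.45 and -0.45 (adjusted p = 0.0781 and 0.0584). Their values correlated with r = 0.191 over 27 replicates. Efna5, an EphA ligand known from retinal mapping, was bright on probe ILMN_2757641, between 9.01 and 10.10, with no Dox call. Its dim probe ILMN_2662536, detected on 5 arrays, was at least 1.22-fold lower at 6 h on the Dox arrays, where it was not detected (adjusted p = 0.0117), while the bright probe differed by -0.10. The dim probe's call ended without untreated replicate 1 (adjusted p = 0.148) or Dox replicate 1 (adjusted p = 0.0605), on the authors' deposited log2 values (-0.06, adjusted p = 0.485) and with the Actb covariate (-0.0099). The transmembrane ligand Efnb1 gave no Dox call and was lower with Dox at 72 h than at 24 h by -0.39 (adjusted p = 0.00825), a difference of 0.03 on the authors' deposited log2 values. Efnb2 was not detected on the 72 h Dox arrays and was at least 1.10-fold lower there than at 24 h (adjusted p = 0.0157), when it was detected on 1 of 3 arrays, a call that ended in 3 of 6 fits without 1 replicate (adjusted p up to 0.126), and Efnb3, detected on 3 arrays, gave no Dox call.

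**Figure D2:**
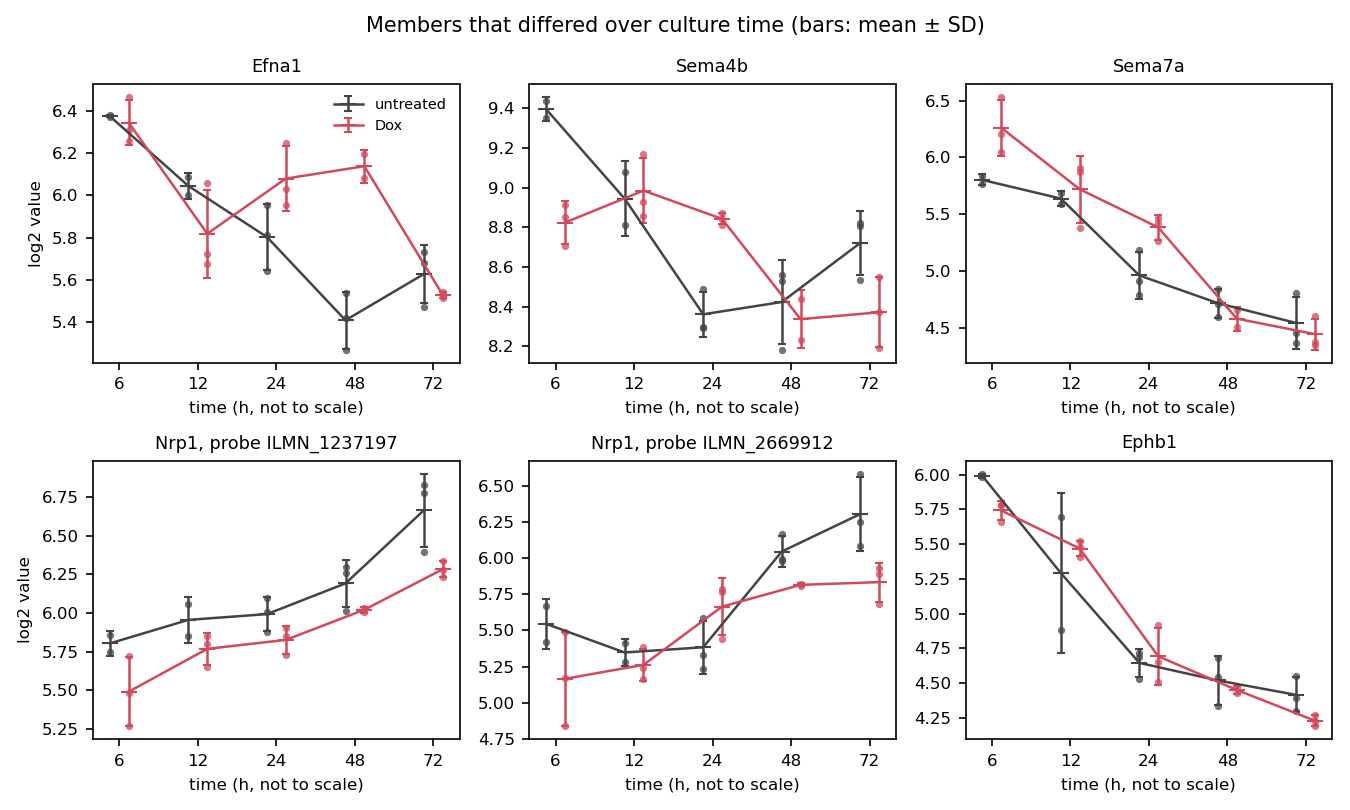
Log2 value (vertical axis) by culture time (horizontal axis, hours, evenly spaced) of Efna1, Sema4b, Sema7a, both Nrp1 probes and Ephb1, with a point per replicate and group means ± SD, untreated in grey and Dox in red. Efna1 parts between treatments at 48 h, Sema7a and Ephb1 end near the background, and Nrp1 is highest at 72 h in untreated cultures.

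The Eph receptors were few. Ephb1, a receptor of B-class ephrins, was 5.98 and 6.00 in untreated cultures at 6 h and 4.55, 4.30 and 4.39 at 72 h, and 5.78, 5.66 and 5.78 against 4.27, 4.19 and 4.23 with Dox. These 6 h and 72 h values did not overlap in either treatment, and the falls of 1.57 untreated and 1.51 with Dox passed the threshold (adjusted p = 9.18e-09 and 3.52e-09). Ephb1 was detected on 11 arrays, so its 72 h values lie at the background and the size of the fall is uncertain. No difference between treatments passed. Epha1, an EphA receptor known from epidermis, had 3 probes that met the detection rule, of which 1 was detected at 6 h. On ILMN_2972748 the 6 h values were 5.74 and 6.25 untreated and 4.43, 4.53 and 4.39 with Dox, where the probe was not detected, so it was at least 2.17-fold lower (adjusted p = 2.56e-06). The other probes, ILMN_2633996 and ILMN_2686924, were detected on 6 and 5 arrays in all and on 0 arrays of either treatment at 6 h, so they give no comparison there. At the other times ILMN_2972748 differed by values from -0.31 to 0.11, none past the threshold.

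Flrt2, an adhesion protein of the fibronectin leucine-rich transmembrane family that binds Unc5 receptors, was lower with Dox at all 5 times. Untreated values were 6.92 and 6.84 at 6 h, 7.19 and 7.08 at 12 h, 7.81, 7.84 and 7.71 at 24 h, 7.49, 7.49 and 7.54 at 48 h, and 7.64, 7.56 and 7.47 at 72 h. With Dox they were 6.32, 6.26 and 6.28 at 6 h, 6.82, 6.44 and 6.47 at 12 h, 6.82, 6.72 and 6.67 at 24 h, 6.48 and 7.04 at 48 h, and 6.76, 6.81 and 6.72 at 72 h. At no time did the treatments overlap, and the 48 h Dox replicates lay the farthest apart. In order of time the difference was -0.59, -0.56, -1.05 (SE 0.12, adjusted p = 2.48e-06, a 2.07-fold lower level), -0.75 and -0.79 (SE 0.12, adjusted p = 3.82e-05), each past the threshold, and the mean over 24, 48 and 72 h was -0.86 (SE 0.07, adjusted p = 9.82e-10). Both treatments rose from 6 to 72 h, by 0.67 untreated and 0.47 with Dox. On the authors' deposited log2 values the mean was -0.50 (adjusted p = 8.13e-08), and there the 6, 12 and 48 h differences did not pass (adjusted p = 0.1, 0.314 and 0.0754). The 48 h call ended without Dox replicate 1 (-0.47, adjusted p = 0.113) and the 12 h call without untreated replicate 1, Dox replicate 2 or Dox replicate 3 (adjusted p = 0.327, 0.116 and 0.0941). Within the array set that holds most of them, Flrt2 differed by -0.51 at 12 h (3 Dox arrays against 1) and by -0.97 at 24 h (1 against 3).

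Flrt3, a relative of Flrt2 that also binds latrophilins, was bright on 2 probes, ILMN_2750740 and ILMN_1229680, which gave no Dox call at any time and correlated with r = 0.794. The remaining probe, ILMN_2756578, lay apart from both (r = -0.04 and 0.02) and was higher with Dox at 6 h by 0.76 (SE 0.25, adjusted p = 0.0247), with values of 5.39 and 5.50 untreated and 6.36, 5.98 and 6.28 with Dox. At 6 h the other probes differed by 0.0036 and -0.12. The ILMN_2756578 call ended in 4 of 5 fits without 1 array (adjusted p up to 0.137), and at 12 h its difference of 0.92 did not pass (adjusted p = 0.0532). With the Actb probe difference as a covariate ILMN_2756578 was at -0.80 (adjusted p = 0.279). All 3 carry the same transcript accession, and the sources used here do not say which exon each covers. Robo1, a Slit receptor, lay between 4.87 and 5.84 on all 29 arrays and gave no Dox call, and Unc5a, Ntng1 and Ntng2, detected on 2, 5 and 3 arrays, gave none either.

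**Figure D3:**
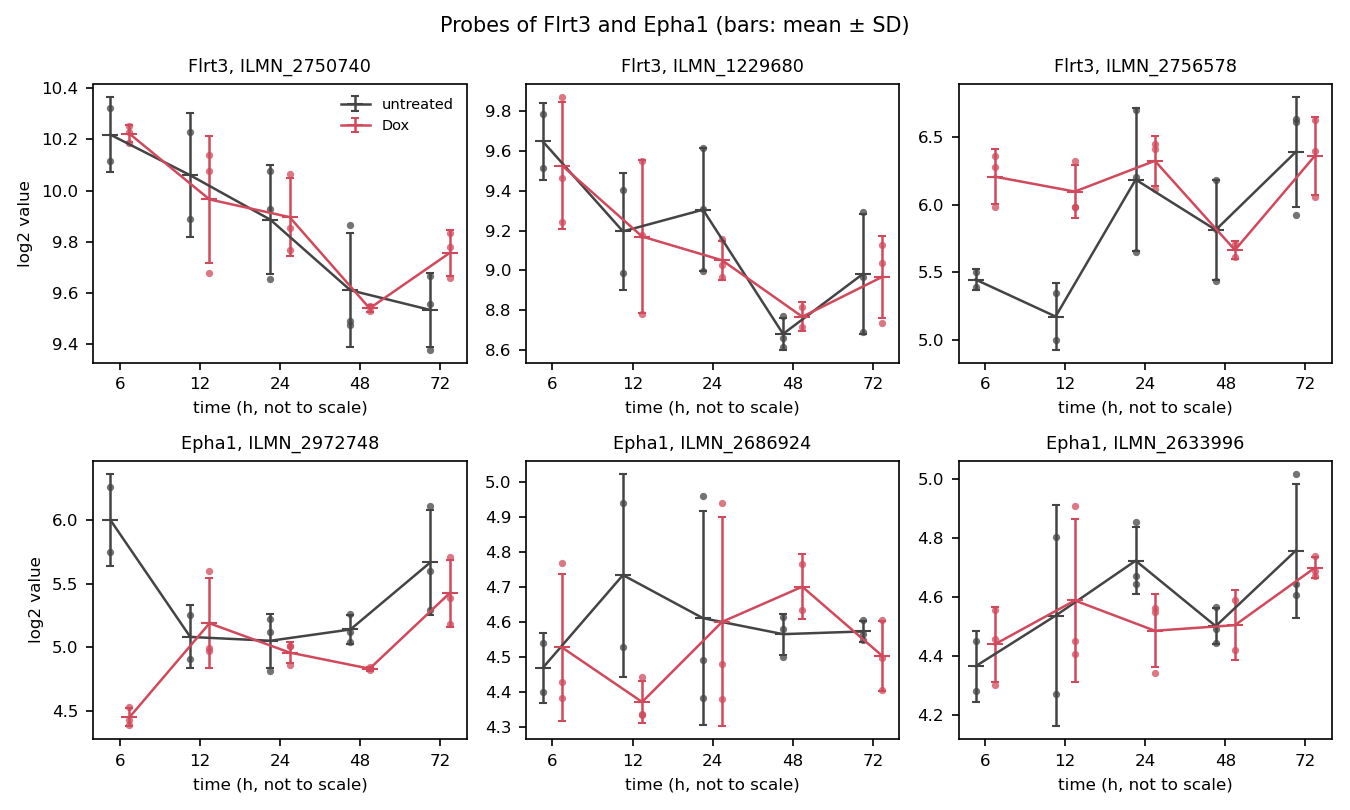
Log2 value (vertical axis) by culture time (horizontal axis, hours, evenly spaced) of the 3 detected probes each of Flrt3 and Epha1, with a point per replicate and group means ± SD, untreated in grey and Dox in red. The probes ILMN_2756578 of Flrt3 and ILMN_2972748 of Epha1 part between treatments at 6 h. The other Flrt3 probes overlap there, and the other Epha1 probes were undetected on every 6 h array.

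Over the 34 probes, counts of calls stood beside those over all 11794 probes tested, which went through the same detection rule. At 6 h 10 probes passed the threshold, 2 higher and 8 lower with Dox, or 29.4% against 25.4% of all probes (12.5% higher and 12.8% lower). With the Actb probe difference as a covariate 1 of these calls, Sema4b, was left. At 6 h this covariate nearly follows treatment, and the SE grew, for Plxna2 from 0.13 to 0.27. That fit therefore cannot decide which of the calls depend on the Actb difference. At 12 h 3 passed (8.82% against 1.6%), at 24 h 4 (11.8% against 2.54%), at 48 h 4 (11.8% against 2.35%) and at 72 h 4 (11.8% against 5.61%). Among all probes the shares higher and lower were 1.2% and 0.399% at 12 h, 1.26% and 1.28% at 24 h, 1.28% and 1.07% at 48 h, and 2.7% and 2.91% at 72 h. At each of these 4 times 2 of the called probes were the Sema5a pair, which share a transcript, and 1 was Flrt2. The remaining calls were Sema4b at 24 h, Efna1 at 48 h and Plxna2 at 72 h. In the mean over 24, 48 and 72 h 7 probes passed (20.6% against 8.78%), 3 higher and 4 lower (4.4% and 4.38% of all probes), and the median difference over the 34 was -0.0097, with -0.0047 over all probes. The F test over 12 to 72 h called 2 probes, Efna1 and Sema4b (5.88% against 1.69%). From 24 to 72 h 8 probes passed in untreated cultures (23.5% against 17.1%), 4 each way (8.38% higher and 8.74% lower among all), and 9 with Dox (26.5% against 14%), 2 higher and 7 lower (7.25% and 6.71%). Other scalings moved the split of higher and lower calls. On the authors' deposited log2 values it was 0 and 2 at 6 h, 4 and 0 at 12 h, 1 and 0 at 48 h, 2 and 4 at 72 h, and from 24 to 72 h 5 and 0 untreated and 4 and 4 with Dox. With median scaling it was 1 and 10, 1 and 0, 2 and 7, and 3 and 0 at the first 4 times, 2 and 5 in the late mean, and from 24 to 72 h 3 and 0 untreated and 6 and 3 with Dox. The members were chosen with results of these arrays known, so the counts describe them and test nothing. From 6 to 72 h the treatments did not overlap for 17, 8, 10, 11 and 9 of the 34 probes, and over all probes for 49.2%, 27.2%, 20.5%, 26% and 24.5%. Between 24 and 72 h 11 untreated and 16 Dox probes did not overlap, against 36.9% and 31.4% of all.

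**Figure D4:**
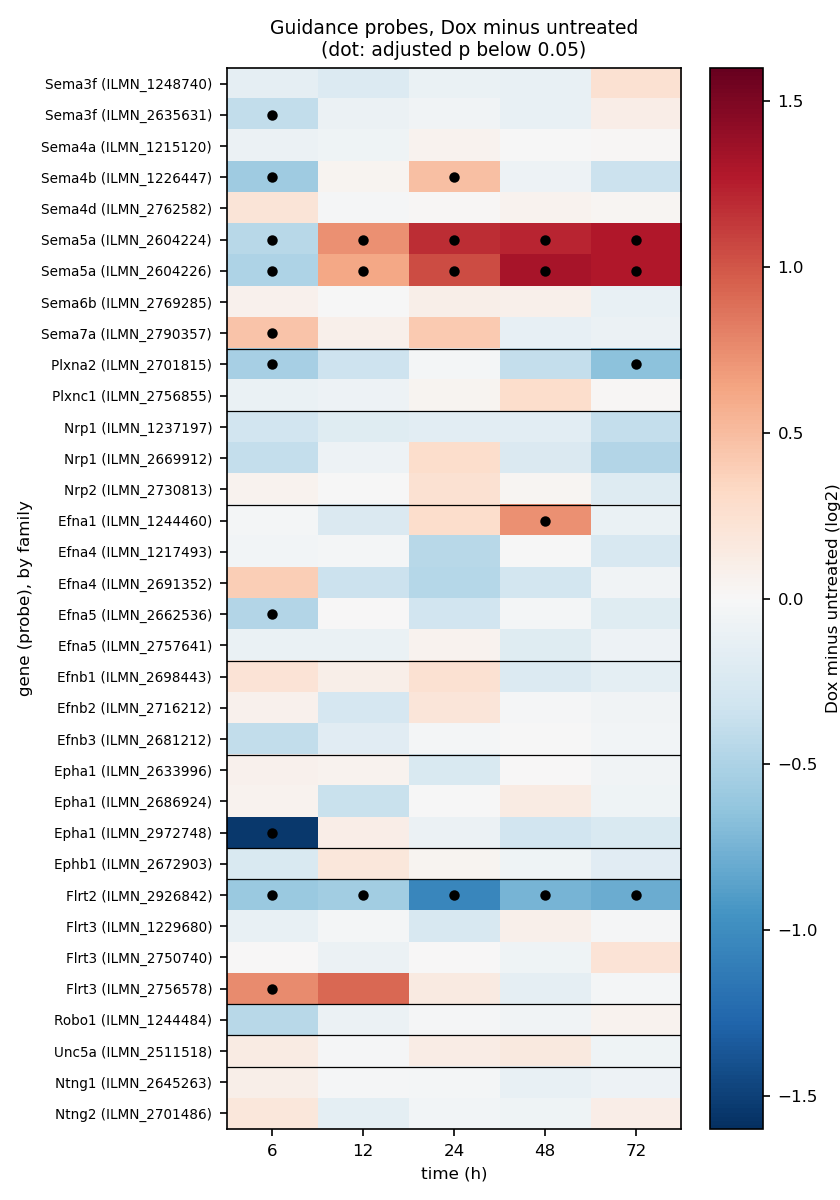
Dox minus untreated difference (log2, colour scale) of the 34 guidance probes (rows, grouped by family) at 5 culture times (columns, hours), with a dot where the adjusted p was below 0.05. Both Sema5a probes are red from 12 h, Flrt2 is blue at every time, and at 6 h 10 probes carry a dot.

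Genes that act with or downstream of these ligands and receptors, some of them receptors or binding partners themselves, were read from 3 lists, each gene by its brightest probe. Of 11 measured genes of semaphorin and plexin signalling, 2 passed in the mean over 24, 48 and 72 h, both lower with Dox, where 9.74% of 8271 genes passed, 4.78% higher and 4.97% lower. Rnd3, a small GTPase that binds plexins, fell by 0.64 (SE 0.08, adjusted p = 8.27e-07), and Mical2, a redox enzyme that disassembles actin, fell by 0.21 (adjusted p = 0.0299). At 6 h Rnd3 was higher with Dox instead, by 1.15 (SE 0.14, adjusted p = 8.06e-07). Of 14 genes of ephrin and Eph signalling 2 passed, both higher: Ngef, the Eph-activated exchange factor ephexin, rose by 0.59 (SE 0.08, adjusted p = 5.15e-06), and Tiam1, a Rac exchange factor, by 0.19 (adjusted p = 0.0484). Of 13 genes of netrin, Slit and Flrt signalling 1 passed, Gpc1, a heparan sulphate proteoglycan that binds Slits, higher by 0.34 (SE 0.06, adjusted p = 5.23e-04). The lists' median differences were -0.07, -0.02 and 0.07, against -0.01 over 8271 genes.

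**Figure D5:**
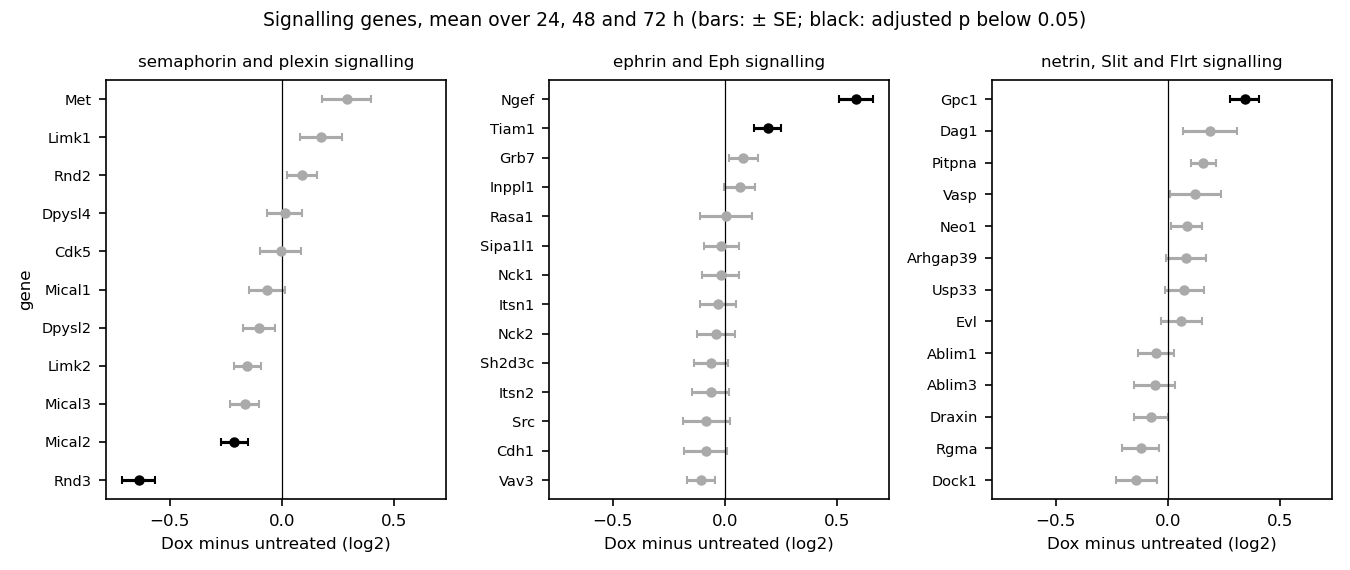
Dox minus untreated difference averaged over 24, 48 and 72 h (horizontal axis, log2, ± SE) of the measured genes (vertical axis) of 3 signalling lists, with genes past an adjusted p of 0.05 in black. Rnd3 lies lowest at -0.64 and Ngef highest at 0.59, and most genes lie near 0.

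Markers of other cell types were read beside these genes. Of the fibroblast list 3 of 10 genes (Thy1, Twist1 and Vim) were measured, and their summed linear level ran from 64.4 to 73.4 on untreated and from 75.4 to 76.7 on Dox arrays at 72 h, without overlap. By limma 0 of the 3 passed in the mean over 24, 48 and 72 h, and 1 had an unadjusted p below 0.05. Of the Schwann and neural list 3 of 9 were measured. At 6 h their sum was 346 to 348 untreated and 285 to 340 with Dox. At 72 h it was 265 to 287 untreated and 354 to 364 with Dox. Stmn2 of that list, a microtubule regulator of neurons, rose by 1.22 in the mean over 24, 48 and 72 h (adjusted p = 3.33e-09), while S100b, Tubb3 and Gap43 were detected on 0 arrays. Of the Merkel cell list 3 of 6 were measured, with a sum of 86.0 to 90.7 untreated and 68.8 to 74.8 with Dox at 72 h. In the mean over 24, 48 and 72 h Krt8 fell by 0.25 (limma adjusted p = 0.043). Krt18 was detected on 19 arrays, Krt8 on 14 and Isl1 on 4, so many of these values lie near the background. Krt20 and Atoh1 were detected on 0 arrays. Of the melanocyte list 4 of 9 were measured, with a sum of 114 to 134 untreated and 111 to 125 with Dox at 72 h. By limma 0 of the 4 passed in that mean and 0 had an unadjusted p below 0.05. By the most often detected probe of each, Pmel was detected on 28 arrays, Dct on 21, Tyrp1 on 17 and Mlana on 12. Tyr and Mitf were detected on 0 arrays. Of the endothelial list only Kdr, 1 of 8, was measured, at -0.09 in that mean and not past the threshold. Among the keratinocyte markers 4 of 9 rose with Dox in that mean, in which 4.78% of all genes rose. These were Itga6 (0.68), Trp63 (0.42), Col17a1 (0.33) and Itgb4 (0.24). The other measured markers, among them Krt5 and Krt14, did not pass. Over the 9 the median difference was -0.0027 and the lowest -0.09. The summed level of the 9 was 45035 to 48495 untreated and 51435 to 51836 with Dox at 72 h. The part of these shifts in the guidance gene differences was not tested.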

How the data were processed

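The table of signals holds an intensity and a detection p-value per probe and array, which the authors deposited without normalization, per the file headers. A second table holds log2 values that the authors deposited after a normalization not given in the sources used here. Intensities were background-corrected and quantile normalized with neqc (limma 3.58.1, R 4.3.3, offset 16). Detection below 0.01 on 2 or more arrays left 11794 of 25697 probes. The arrays' median signals lay between 54.5 and 74.5, with 33.4 to 37.8% of probes detected, and the number of arrays limits precision. One limma fit held 10 group means over 27 replicates, with 17 residual degrees of freedom. For each contrast, p-values were adjusted by Benjamini-Hochberg across the 11794 probes (threshold 0.05, no fold minimum). A probe undetected on every array of a group is bounded at the lowest detected signal of each array. The scripts were tested on simulated data. Members, lists and tests were chosen with earlier results of these data known. Probes named are those called at 24, 48 or 72 h, in their mean, in the time test or over time, up to 6 called at 6 and 12 h, other probes of the same genes and the brightest probe of each family, and up to 3 genes of each signalling list. Alternatives were the authors' values, other background correction, scaling and filters, array set, letter or Actb probes in the fit, other times, and leaving out each replicate.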

Additional observations from a re-analysis of the deposited data

Results flagged for a closer look

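For 2 guidance genes the difference between treatments changed with time by limma's F test over 12, 24, 48 and 72 h. Efna1 passed (adjusted p = 0.00849), with differences of -0.23, 0.28, 0.73 and -0.10 on the log2 scale, of which the 48 h value passed the threshold. Sema4b passed closer to the threshold (adjusted p = 0.0448), with differences of 0.04, 0.48, -0.09 and -0.35. The Sema4b call ended in 15 of 22 fits that left out 1 replicate (adjusted p up to 0.117) and the Efna1 call in none of 22 (adjusted p up to 0.0449). Both used arrays of several sets, and with the set as a block the adjusted p was 0.0464 for Efna1 and 0.31 for Sema4b.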

How the results depend on the processing

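Signals near the background limit these results, since 12 of the 34 probes were detected on 9 arrays or fewer. The Sema5a, Flrt2 and Plxna2 means over 24, 48 and 72 h kept their direction and stayed past the threshold in the 11 alternatives and 17 fits without 1 replicate. The counts of called guidance probes moved as follows. On the authors' deposited log2 values 2 were called at 6 h, 1 at 48 h and 5 from 24 to 72 h untreated. Median scaling called 1 at 12 h, 9 at 24 h (2 higher, 7 lower, against 3 and 1), 1 in the F test and 3 from 24 to 72 h untreated, and it moved the median of all probes by -0.11 at 6 h, -0.21 at 24 h and 0.21 from 24 to 72 h with Dox, with calls there of 6 higher and 3 lower against 2 and 7. Of all probes it called 19.4% at 24 h and 26% from 24 to 72 h with Dox. The authors' values moved that median by 0.11 at 12 h. Without a detection filter 6 were called at 6 h, 1 in the F test and 5 from 24 to 72 h untreated. The array set as a block called 0 at 12 h by limma (6 at an unadjusted p below 0.05), where the Sema5a probes differed by 0.64 and 0.63, and 1 in the F test. With the Actb probe difference as a covariate 1 was called at 6 h, 0 at 12 h by limma (5 at an unadjusted p below 0.05) and 7 at 72 h. At each of these times the covariate did not overlap between treatments. With the letter as a replicate block 1 was called in the F test, and the other counts stayed within 1.5 times. Samples of 1 letter did not deviate together (correlations from -0.05 to 0.15 over 12 pairs, 1 over 0.1). With so few replicates per group this cannot decide whether samples of 1 letter share an origin. All 5 times in the F test called 6 (15.3% of all probes), and 72 h minus 6 h called 21 untreated (44.4%) and 16 with Dox (35.9%). Leaving out 1 replicate gave 4 to 9 calls at 6 h, 0 to 3 at 12 h, 3 to 5 at 24 h, 3 to 5 at 48 h, 4 to 6 at 72 h, 5 to 7 in the late mean, 1 to 2 in the F test, 5 to 6 from 24 to 72 h untreated and 5 to 10 with Dox. Directions turned for Efnb1 from 24 to 72 h with Dox on the authors' values (0.026) and for the Flrt3 probe ILMN_2756578 at 6 h with the Actb covariate (-0.80). In untreated cultures the Epha1 probe ILMN_2972748 and Sema4b were called higher at 72 h than at 24 h (0.61 and 0.36). These calls ended in 2 and 4 of 6 fits without 1 replicate. Set against 6 h, a different comparison, the 72 h differences were -0.33 and -0.67. The cause of these shifts was not tested. From 24 to 72 h the array set could not be fitted as a block.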
